A study of Mus musculus with 19 samples.

Results

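Rab GTPases are the small membrane-bound switches that give each compartment of the secretory and endocytic routes its identity. The members were all probe sets whose single gene symbol was Rab followed by a number, with optional lower-case letters and a further number, leaving out Rab3a. The rule took 158 of the 45101 probe sets on the array, which stand for 70 genes. It does not keep to GTPases: 58 of the genes encode one, 5 encode adaptors that bind Rab11 (Rab11fip1 to Rab11fip5), and 3 have other symbols (Rab5if and the antisense RNAs Rab10os and Rab26os). The other 4, Rab3gap1, Rab3gap2, Rab3ip and Rab3il1, are named for acting on or binding Rab3. They are grouped as Rab3 regulators by name only. A probe set was tested where its mean log2 intensity over all arrays was at least 4, which 104 probe sets of 54 genes met (65.8% of the members' probe sets, against 45.5% of all probe sets that are not controls).

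A Rab protein is attached to membranes by prenyl groups and cycles between a GTP-bound active form, reached with the help of exchange factors (GEFs), and a GDP-bound inactive form, reached with the help of GTPase-activating proteins (GAPs). In the active form it recruits effectors such as motors, tethers and adaptors, which move, dock and fuse vesicles. In neurons the family is known for synaptic vesicle release, for recycling of receptors in dendrites, and for the delivery of endosomes and autophagosomes to lysosomes.

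The RNA came from brains of male mice, with 1 array per sample and 19 arrays in all. There were 4 wild-type (wt) samples after placebo, 5 wt samples after CCI-779, 5 SCA3 transgenic samples after placebo and 5 SCA3 transgenic samples after CCI-779. CCI-779 is temsirolimus, an ester of rapamycin that inhibits the kinase mTOR, and SCA3 stands for spinocerebellar ataxia type 3, an inherited disease in which ataxin-3 carries a polyglutamine tract that is too long. Treatment began at 5 weeks of age in every group and lasted 6 weeks, with 3 intraperitoneal injections per week of CCI-779 at 20 mg/kg or of placebo. The sources used here give no promoter, repeat length or founder line for the transgene, no strain, and no brain region, and they do not say whether each array is a separate animal, so the spread behind each p-value is that between samples, which may be technical.

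All 13 neuronal markers and all 11 oligodendrocyte markers that were on the array lay above the filter, and 0 of 4 liver genes did. The mean levels of some marker lists, not all, differed between drug and placebo samples. The mean log2 level of 9 microglial genes was 7.74 after CCI-779 and 8.07 after placebo in SCA3 mice. In wt the same pair of levels was 7.74 and 8.07 (exact permutation test, adjusted p = 0.0295 for both genotypes, over 26 tests of array measures). The 11 oligodendrocyte markers averaged 11.57 against 11.98 in SCA3 (adjusted p = 0.0459) and 11.64 against 11.77 in wt (adjusted p = 0.31), and 8 meningeal genes were higher after the drug by 0.39 in SCA3 (adjusted p = 0.0295) and by 0.32 in wt (adjusted p = 0.0688). The 6 choroid plexus genes averaged 7.57 after the drug and 7.88 after placebo in SCA3 (adjusted p = 0.0295), and 7.64 and 7.63 in wt (adjusted p = 0.968). Neuronal markers differed by 0.13 in SCA3 and 0.04 in wt (adjusted p = 0.364 and 0.402). Astrocyte markers differed by 0.10 and 0.11 (adjusted p = 0.39 and 0.0794), and endothelial markers by −0.06 and −0.09 (adjusted p = 0.638 for both). The 1 blood gene above the filter did not pass either (adjusted p = 0.754 and 0.949). In bulk tissue, fewer cells of a type and less RNA per cell cannot be told apart. Hybridization spike-ins, which are control transcripts added to every sample, read 10.55 after CCI-779 against 11.36 after placebo in SCA3, and 10.23 against 11.13 in wt (adjusted p = 0.0295 and 0.0459). Labelling spike-ins read 5.25 against 6.10 in SCA3 and 5.37 against 5.86 in wt (adjusted p = 0.0295 and 0.0619). The 3′ minus 5′ difference of the GAPDH control probe sets, a sign of RNA integrity, also differed between the groups: it was −0.35 after CCI-779 and −0.52 after placebo in SCA3, and −0.28 and −0.54 in wt (adjusted p = 0.0295 and 0.0688), with no overlap in either genotype. Of the wt CCI-779 samples, the one whose label has no number, replicate 1, had a difference of 0.28 where the others had −0.44 to −0.39. SCA3 CCI-779 replicates 2 and 5 had 3′ minus 5′ actin differences of 0.96 and 0.88, and replicates 1, 3 and 4 had 1.55, 1.44 and 1.55. The same replicates 2 and 5 had the highest neuronal marker levels of their group, 12.75 and 12.72 against 12.35, 12.34 and 12.51, and the highest astrocyte marker levels, 12.16 and 12.11 against 11.73, 11.88 and 11.92. The part of these measures in the results on Rab genes was not tested beyond the fits given beside them.

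Under CCI-779, few Rab genes changed and the changes were small. In SCA3 mice 7 member probe sets rose and 5 fell (6.73% and 4.81%, against 10.2% and 4.95% of all 20473 tested probe sets), and in wt mice 7 rose and 5 fell (against 9.78% and 2.11% of all), by limma with a Benjamini-Hochberg adjusted p under 0.05. The 12 calls were 11.5% of the members in each genotype, against 15.2% of all in SCA3 and 11.9% in wt, so neither share exceeded that of the array as a whole. The called changes lay between 0.22 and 0.66 in size (log2 scale, 1.17-fold to 1.58-fold) in SCA3 and between 0.20 and 0.72 (1.15-fold to 1.65-fold) in wt. Called in both genotypes were single probe sets of the endosomal GTPases Rab4a, Rab14 and Rab11b and of the Rab11 adaptors Rab11fip4 and Rab11fip5, which rose, and 1 of the Golgi-entry GTPase Rab1a, which fell. Other probe sets of these genes are given with each gene where they were tested.

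By gene, taking the brightest tested probe set of each, 3 of 54 rose and 4 fell in SCA3 (13%, against 17.1% of 10454 genes, of which 11% rose and 6.09% fell). In wt 4 rose and 3 fell (13%, against 13.1% of all genes, of which 11.5% rose and 1.64% fell). The median change of the 54 genes was −0.03 in SCA3, with a median of 0.00 over all genes, and 0.09 in wt, with 0.08 over all genes. Centring each array on its median moved the wt median of all genes from 0.08 to −0.03, and the members' median from 0.09 to −0.02. With that scaling the split of member calls in wt became 1 higher and 10 lower, and after a further quantile normalization 4 higher and 8 lower. The same scalings gave 7 higher with 11 lower, and 7 higher with 10 lower, in SCA3. No named call changed direction in any setting tried.

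**Figure D1:**
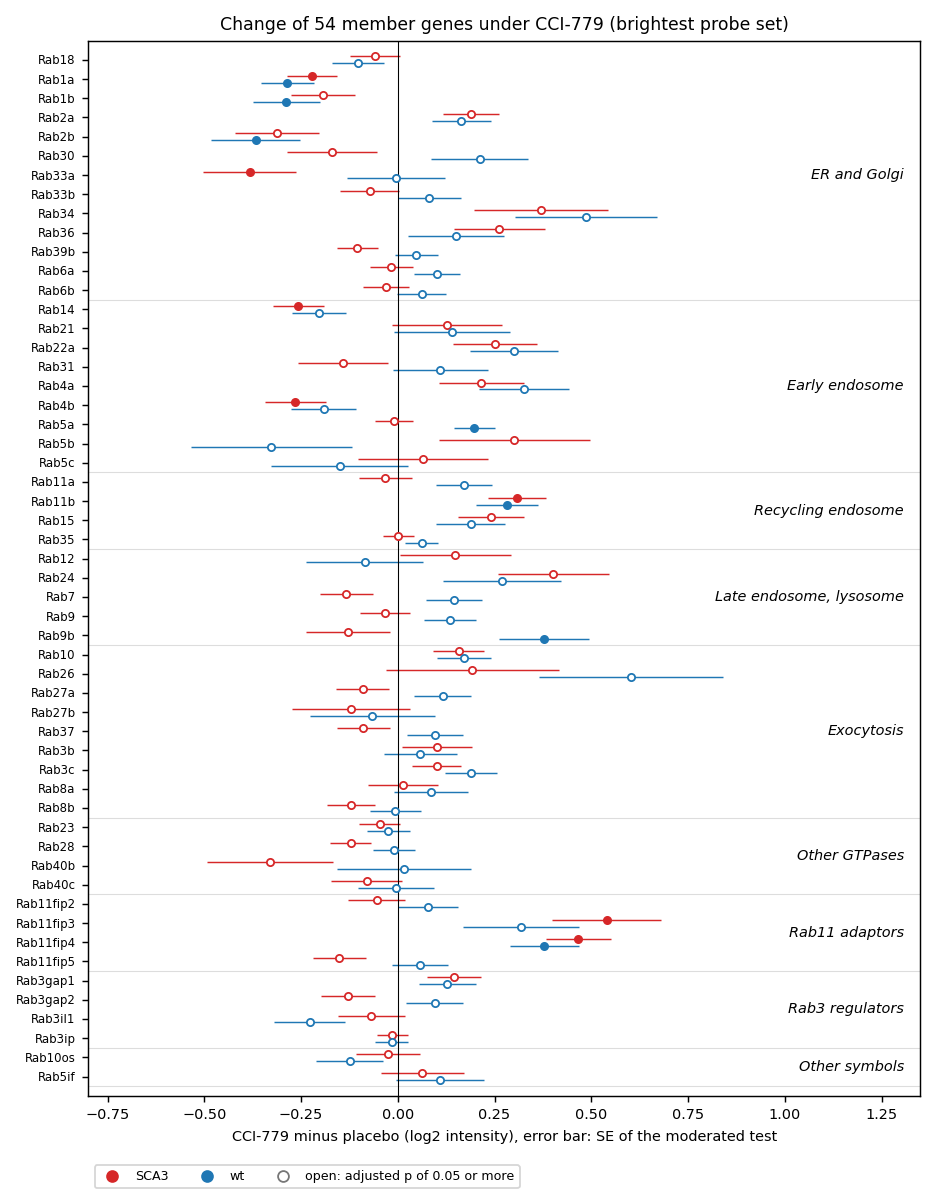
Change under CCI-779 (log2 intensity, CCI-779 minus placebo) of the 54 tested member genes by their brightest probe set, grouped by the compartment or role of the protein, with SCA3 in red and wt in blue. Error bars are the standard error of the moderated test and filled points have an adjusted p under 0.05, which holds for 7 genes in each genotype.

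The drug contrasts use separate arrays in the 2 genotypes. Of the 12 probe sets called in SCA3, 6 (50%) were also called in wt, which is 50% of the wt calls, and all 6 moved the same way. Over all probe sets the shares were 38.9% of the SCA3 calls and 49.7% of the wt calls. Regardless of a call, 72 of the 104 members (69.2%) had the same sign in both genotypes, against 72.6% of all tested probe sets. The 6 probe sets belong to Rab4a, Rab11b, Rab11fip4, Rab11fip5, Rab14 and Rab1a.

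Promoters are shown for these genes because 1 probe set of each was called the same way in both genotypes. Other tested probe sets of Rab14, Rab11fip5 and Rab1a include ones of the opposite sign. RefSeq (GRCm38.p6) start sites were matched for 57 of the 70 member genes and for 4 of the 6 genes called in both genotypes. Rab4a and Rab11fip4 are named only. Each line gives the 250 bases before the start site, 5′ to 3′ on the strand of the gene, with capitals for a GC box (GGGCGG) or a CCAAT box (CCAAT) on either strand. The first lies at chr17:33760487-33760736 (minus strand), the second at chr6:85374635-85374884 (minus strand), the third at chr2:35201121-35201370 (minus strand) and the last at chr11:20201162-20201411 (plus strand).
Rab11b: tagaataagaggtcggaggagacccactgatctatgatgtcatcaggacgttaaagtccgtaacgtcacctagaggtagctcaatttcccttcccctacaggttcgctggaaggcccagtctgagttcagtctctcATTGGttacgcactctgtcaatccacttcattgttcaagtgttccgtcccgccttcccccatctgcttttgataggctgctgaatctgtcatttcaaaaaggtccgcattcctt
Rab11fip5: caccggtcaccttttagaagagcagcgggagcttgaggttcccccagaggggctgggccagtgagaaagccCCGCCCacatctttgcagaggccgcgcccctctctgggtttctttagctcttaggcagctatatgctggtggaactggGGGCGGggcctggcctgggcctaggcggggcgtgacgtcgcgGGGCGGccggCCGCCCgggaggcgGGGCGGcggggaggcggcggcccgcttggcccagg
Rab14: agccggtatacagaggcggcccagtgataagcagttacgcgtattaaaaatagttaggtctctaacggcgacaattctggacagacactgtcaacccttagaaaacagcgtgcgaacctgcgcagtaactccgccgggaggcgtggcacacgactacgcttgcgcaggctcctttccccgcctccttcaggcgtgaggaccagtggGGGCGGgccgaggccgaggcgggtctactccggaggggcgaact
Rab1a: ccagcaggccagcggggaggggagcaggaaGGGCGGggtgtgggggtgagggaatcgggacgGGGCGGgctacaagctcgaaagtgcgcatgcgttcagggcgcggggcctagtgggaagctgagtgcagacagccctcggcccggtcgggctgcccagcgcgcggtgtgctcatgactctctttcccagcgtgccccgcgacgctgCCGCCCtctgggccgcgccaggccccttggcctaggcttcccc

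The Rab11fip5 window held 5 GC boxes, the Rab1a window 3 and the Rab14 window 1, and the Rab11b window had 1 CCAAT box and no GC box. Among the 57 member promoters 41 (71.9%) held a GC box, against 32.9% of 27025 mouse promoters of the same length, and the median GC content was 62% for members and 52% for all. The E-box CACGTG, the core of sites bound by TFEB-type factors that control lysosomal genes, was in 7 member promoters (12.3%, against 6.05% of all) and in none of the 4 shown. A CCAAT box was in 45.6% of members (34.5% of all), TATAAA in 10.5% (13% of all) and TGACGTCA, the cyclic AMP response element, in 5.26% (1.62% of all). Both strands were searched and matches of different motifs were counted separately. These are matches of letters in a window and say nothing about whether a factor was bound.

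Rab4a, which drives fast recycling from early endosomes to the cell surface, had the smallest adjusted p of any member probe set. On probe set 1418341_at the SCA3 placebo arrays read 8.62, 8.54, 8.63, 8.46 and 8.83, and the SCA3 CCI-779 arrays 9.09, 9.56, 9.07, 9.35 and 9.23 (log2 intensity). The wt placebo arrays read 8.68, 8.44, 8.27 and 8.70, and the wt CCI-779 arrays 8.93, 8.97, 9.22, 9.16 and 9.10. Treated and placebo arrays did not overlap in either genotype, which 13.2% of all tested probe sets showed in SCA3 and 15% in wt. Rab4a rose by 0.64 (SE 0.10, 1.56-fold, limma adjusted p = 9.82e-04) in SCA3 and by 0.55 (SE 0.11, 1.47-fold, adjusted p = 0.00514) in wt. The brighter Rab4a probe set, 1449048_s_at, differed by 0.22 in SCA3 and 0.33 in wt (adjusted p = 0.195 and 0.0747). Probe sets ending in _s_at can also match transcripts of other genes. The mean of both probe sets rose by 0.43 in SCA3 and 0.44 in wt (adjusted p = 0.00549 and 0.0102).

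Rab4b, its close paralog, went the other way. The SCA3 placebo arrays read 9.70, 9.94, 9.88, 9.70 and 9.95, and the treated arrays 9.43, 9.54, 9.50, 9.70 and 9.68. Rab4b fell by 0.26 in SCA3 (SE 0.08, adjusted p = 0.032), although the highest treated array lay level with the lowest placebo arrays. In wt the placebo mean was 9.81 ± 0.13 (SD, n = 4) and the treated mean 9.62 ± 0.12 (SD, n = 5), a difference of −0.19 with an adjusted p of 0.141.

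Rab5a, the GTPase of early endosome fusion, rose in wt. Its wt placebo arrays read 12.08, 12.19, 12.18 and 12.28, and its wt CCI-779 arrays 12.34, 12.32, 12.39, 12.49 and 12.35, so the groups did not overlap. The change was 0.20 (SE 0.05, adjusted p = 0.0222). In SCA3 mice Rab5a stood at 12.30 ± 0.02 (SD, n = 5) after placebo and 12.29 ± 0.07 (SD, n = 5) after the drug, a difference of −0.01. The difference between the genotypes in the drug effect was −0.21 (SE 0.07, adjusted p = 0.557).

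Rab21, which carries integrins into the cell, fell in SCA3 on 1 of its probe sets. On 1437742_at the SCA3 placebo arrays read 7.25, 7.12, 7.08, 7.19 and 7.42, and the treated arrays 6.90, 6.68, 6.98, 6.90 and 6.52, with no overlap. This was a fall by 0.41 (SE 0.11, adjusted p = 0.0171). The brighter probe set, 1437741_at, differed by 0.13 in SCA3 (adjusted p = 0.586), so the fall was not seen on both. The other early-endosome genes by their brightest probe set, Rab22a, Rab31, Rab5b and Rab5c among them, lay between −0.14 and 0.30 in SCA3 with an adjusted p of at least 0.123.

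**Figure D2:**
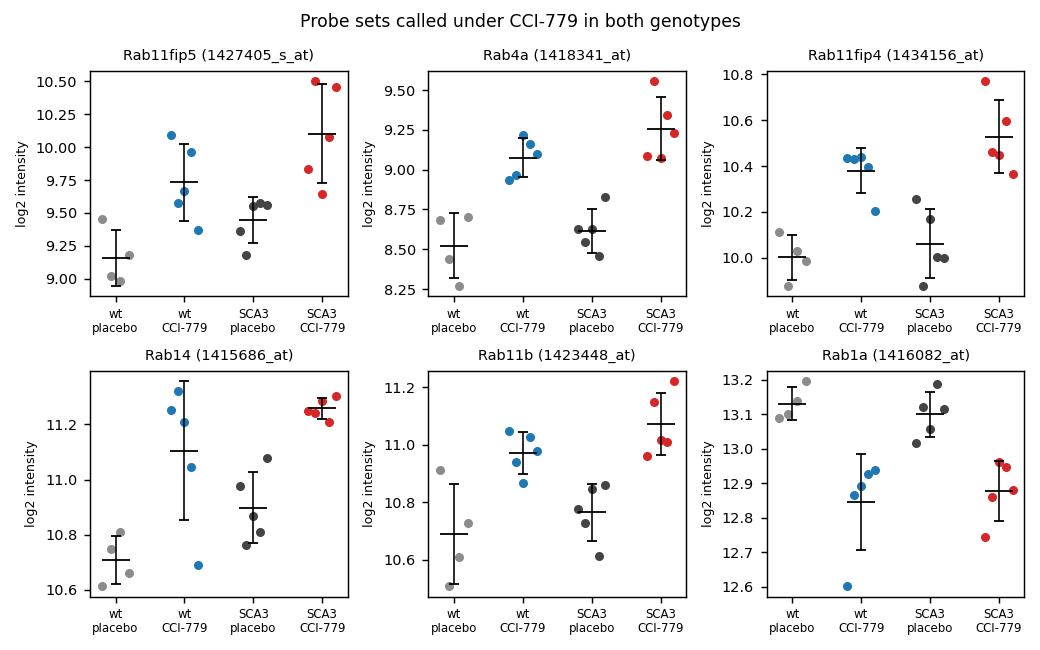
Log2 intensity on each array (points) with the mean and SD (bars) of the 6 probe sets called under CCI-779 in both genotypes. For Rab4a, Rab11fip4 and Rab1a, treated and placebo arrays do not overlap in either genotype, and 1 wt CCI-779 array of Rab14 (10.69) lies among the placebo arrays.

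Rab14, which works between the Golgi and endosomes, had 6 tested probe sets that disagreed in direction. On 1415686_at the SCA3 placebo arrays read 10.98, 10.76, 10.87, 10.81 and 11.08, and the treated arrays 11.25, 11.24, 11.29, 11.21 and 11.30. That probe set rose by 0.36 in SCA3 (SE 0.10, adjusted p = 0.0175) and by 0.40 in wt (SE 0.10, adjusted p = 0.0183). Probe set 1419244_a_at rose by 0.44 in SCA3 (SE 0.11, adjusted p = 0.0127) and differed by 0.30 in wt (adjusted p = 0.1). The brightest one, 1419246_s_at, fell by 0.26 in SCA3 (SE 0.07, adjusted p = 0.0142), with placebo arrays at 13.06, 13.07, 12.97, 13.21 and 13.04 and treated arrays at 12.82, 12.66, 12.91, 12.88 and 12.80. In wt that probe set differed by −0.20 (adjusted p = 0.0623). The dimmest, 1441992_at, fell by 0.36 in wt (SE 0.11, adjusted p = 0.0462) and differed by −0.07 in SCA3.

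The 2 remaining Rab14 probe sets did not pass. On 1419243_at, SCA3 CCI-779 replicates 2 and 5 read 9.59 and 9.56 and the other treated arrays 8.77, 8.86 and 8.83, close to the placebo range of 8.56 to 9.07. The mean over all Rab14 probe sets rose by 0.18 in SCA3 (SE 0.05, adjusted p = 0.0254), opposite to the fall of the brightest probe set, so no direction can be given for the gene as a whole. Of the 32 member genes with several tested probe sets, 15 had both signs in SCA3 and 19 in wt. Rab14 was the only one called in both directions within a genotype, and 6 of the 32 genes in SCA3 and 7 in wt were called on some of their probe sets but not all. None was called on every one of several probe sets.

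**Figure D3:**
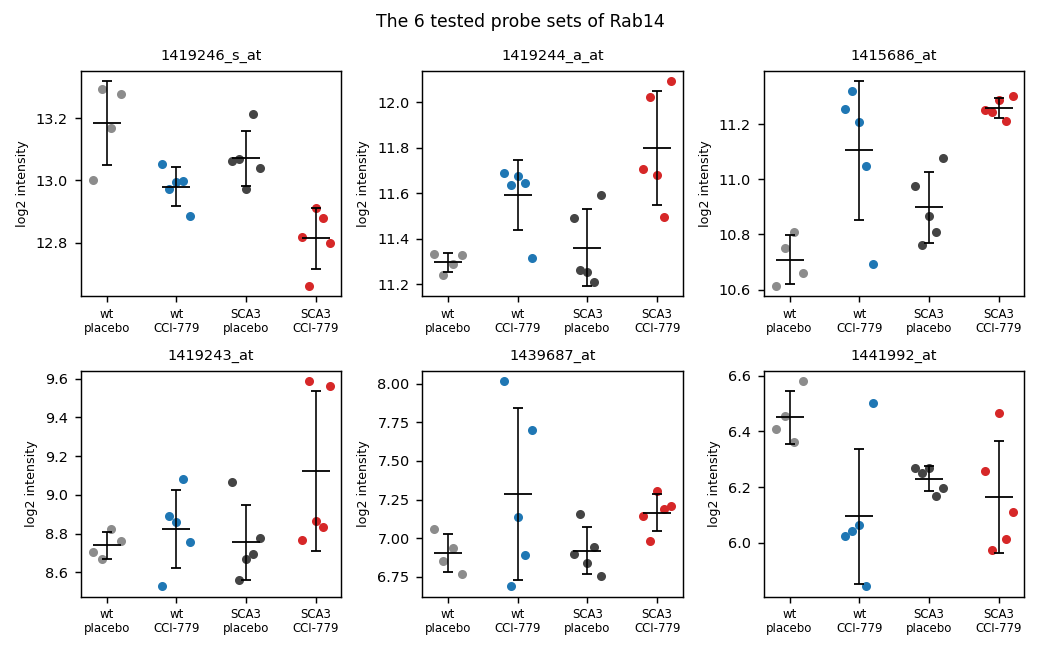
Log2 intensity of the 6 tested Rab14 probe sets on each array (points) with mean and SD (bars), ordered from the brightest to the dimmest. In SCA3 mice the brightest fell by 0.26 under CCI-779 while 1419244_a_at and 1415686_at rose by 0.44 and 0.36.

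Rab11b, the brain-rich form of the recycling-endosome GTPase, rose in both genotypes on its brightest probe set. A dimmer one differed by 0.14 in SCA3 and 0.11 in wt and did not pass. The SCA3 placebo arrays read 10.78, 10.73, 10.85, 10.61 and 10.86, and the treated arrays 10.96, 11.15, 11.02, 11.01 and 11.22. The wt placebo arrays read 10.91, 10.51, 10.61 and 10.73, and the treated arrays 11.05, 10.94, 10.87, 11.03 and 10.98. Groups did not overlap in SCA3, and in wt 1 placebo array lay above the lowest treated array. The changes were 0.31 (SE 0.08, adjusted p = 0.0117) in SCA3 and 0.28 (SE 0.08, adjusted p = 0.0296) in wt. Rab11a, the ubiquitous form, was at 11.16 ± 0.08 (SD, n = 5) after placebo and 11.12 ± 0.08 (SD, n = 5) after the drug in SCA3, a difference of −0.03 (adjusted p = 0.786). In wt Rab11a was at 11.08 ± 0.12 (SD, n = 4) after placebo and 11.25 ± 0.13 (SD, n = 5) after the drug, a difference of 0.17 (limma adjusted p = 0.13). The other recycling-endosome genes, Rab15 and Rab35, did not pass in either genotype.

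Of the 4 tested adaptors that link Rab11 to motors and tethers, 2 rose in SCA3 and 1 in wt by their brightest probe set (11% and 11.5% of all genes rose), too few to set against those shares. Rab11fip4 read 10.26, 9.88, 10.17, 10.005 and 9.998 on the SCA3 placebo arrays and 10.77, 10.46, 10.45, 10.60 and 10.36 on the treated arrays. On the wt arrays it read 10.11, 9.88, 10.03 and 9.99 after placebo and 10.43, 10.43, 10.44, 10.39 and 10.20 after CCI-779. Neither genotype showed overlap between the groups. Rab11fip4 rose by 0.47 (SE 0.08, 1.38-fold, adjusted p = 0.00192) in SCA3 and by 0.38 (SE 0.09, 1.30-fold, adjusted p = 0.0124) in wt.

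Rab11fip3, an adaptor known for its part in cytokinesis, rose in SCA3 from 8.45, 8.47, 8.78, 8.67 and 8.60 to 8.90, 9.44, 8.82, 9.27 and 9.26. The change of 0.54 (SE 0.14, adjusted p = 0.0163) compares with 0.32 (SE 0.15, adjusted p = 0.168) in wt, and the difference between the genotypes was 0.22 (adjusted p = 0.797). Rab11fip5 rose on 1427405_s_at, which was at 9.36, 9.18, 9.55, 9.58 and 9.56 after placebo and at 9.84, 10.50, 9.65, 10.08 and 10.46 after the drug in SCA3. That probe set changed by 0.66 (SE 0.17, adjusted p = 0.014) in SCA3 and 0.58 (SE 0.18, adjusted p = 0.0422) in wt. The brighter Rab11fip5 probe set, 1434314_s_at, gave −0.15 in SCA3 and 0.06 in wt (adjusted p = 0.144 and 0.627).

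Among the GTPases of the endoplasmic reticulum and Golgi, 2 of 13 genes fell in SCA3 and 3 in wt, and none rose. Of all genes, 6.09% fell and 11% rose in SCA3, and 1.64% fell and 11.5% rose in wt, and with 13 genes nothing is read from the difference. Rab1a, which brings vesicles from the endoplasmic reticulum to the Golgi, read 13.02, 13.12, 13.06, 13.19 and 13.12 after placebo and 12.74, 12.86, 12.96, 12.95 and 12.88 after CCI-779 in SCA3. In wt it read 13.09, 13.10, 13.14 and 13.20 after placebo and 12.60, 12.87, 12.89, 12.93 and 12.94 after the drug. Every treated array lay below every placebo array in both genotypes. The falls were by 0.22 (SE 0.06, adjusted p = 0.0289) in SCA3 and by 0.29 (SE 0.07, adjusted p = 0.0133) in wt. A second, dimmer probe set of Rab1a differed by −0.07 and 0.05 and did not pass.

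Rab1b, its paralog in the same step, fell in wt, from 8.81, 8.79, 8.58 and 8.75 to 8.38, 8.38, 8.55, 8.54 and 8.36 (−0.29, SE 0.09, adjusted p = 0.039). In SCA3 it differed by −0.19 (adjusted p = 0.119). Rab2b, a Golgi GTPase, fell in wt on its brightest probe set, 1452667_at, from 9.09, 9.25, 8.89 and 9.04 to 9.0004, 8.68, 8.73, 8.38 and 8.72 (−0.37, SE 0.11, adjusted p = 0.0457), with 1 treated array inside the placebo range. That probe set differed by −0.31 in SCA3 (adjusted p = 0.0591). On 1428115_a_at, Rab2b differed by 0.16 in wt and 0.15 in SCA3, the opposite sign (limma adjusted p = 0.459 and 0.453). Its other tested probe sets, 1452668_x_at, 1455857_a_at and 1436923_at, were lower after the drug in both genotypes and did not pass. The mean over all tested Rab2b probe sets fell by 0.33 in wt (limma adjusted p = 0.0293). Rab33a, a Golgi GTPase found in brain, fell in SCA3 from 9.50, 9.54, 9.69, 9.53 and 9.73 to 9.07, 9.01, 9.47, 9.47 and 9.06 (−0.38, SE 0.12, adjusted p = 0.0402). In wt it stood at 9.36 in both groups, and the difference between the genotypes in the effect was −0.38 (adjusted p = 0.645).

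Of the 5 genes of late endosomes and lysosomes, 1 rose in wt (11.5% of all genes did) and none passed in SCA3. Rab9b, a brain paralog of the GTPase that returns receptors from late endosomes to the Golgi, read 8.24, 8.10, 8.25 and 8.27 in wt placebo and 8.89, 8.48, 8.81, 8.27 and 8.52 in wt CCI-779 samples. It rose by 0.38 (SE 0.12, adjusted p = 0.0429), with the lowest treated array level with the placebo arrays. In SCA3 its difference was −0.13 (adjusted p = 0.458). Rab7, the main GTPase of lysosome fusion, differed by −0.13 in SCA3 and 0.14 in wt (adjusted p = 0.195 and 0.19). Rab24, which is linked to autophagy, differed by 0.40 in SCA3 (adjusted p = 0.0669), where treated replicates 2 and 5 read 10.53 and 10.49 and the other treated arrays 9.80, 9.86 and 10.01.

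None of the 9 genes of exocytosis and the plasma membrane passed by their brightest probe set. Their uncalled changes lay between −0.12 and 0.19 in SCA3 and between −0.07 and 0.60 in wt. Rab3c, a synaptic vesicle GTPase, fell in wt on 1449494_at, from 10.43, 10.55, 10.44 and 10.55 to 9.11, 10.04, 10.11, 9.53 and 10.06 (−0.72, SE 0.18, 1.65-fold, adjusted p = 0.0187). Its brightest probe set, 1435047_at, differed by 0.19 in wt (adjusted p = 0.0709), the opposite sign. A further Rab3c probe set, 1432432_a_at, differed by −1.07 in wt and −0.68 in SCA3 (adjusted p = 0.0553 and 0.177), without overlap in either genotype. Among the brightest probe sets of these 9 genes, that of Rab26, known on synaptic and secretory vesicles, had the widest uncalled difference in wt. It was 0.60 (SE 0.24, adjusted p = 0.103), with treated arrays at 6.94 to 7.82 above the placebo arrays at 6.47 to 6.75.

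The 4 genes named for acting on or binding Rab3, the 4 other GTPases (Rab23, Rab28, Rab40b and Rab40c) and the 2 tested genes with other symbols (Rab10os and Rab5if) gave no call under the drug in either genotype. Rab3gap1 and Rab3gap2, the subunits of a GAP complex for Rab3, differed by 0.15 and −0.13 in SCA3 (adjusted p of at least 0.168 there for Rab3gap1, Rab3gap2, Rab3il1 and Rab3ip). Rab10os and Rab5if differed by between −0.12 and 0.11 in both genotypes on their brightest probe sets. A dimmer Rab10os probe set, 1453294_at, differed by 0.23 in SCA3 and −0.11 in wt (limma adjusted p = 0.171 and 0.572). The 16 untested genes had no probe set with a mean log2 intensity of 4, and their brightest probe sets averaged from 1.92 (Rab19) to 3.89 (Rab43). They were Rab11fip1, Rab13, Rab17, Rab19, Rab20, Rab25, Rab26os, Rab29, Rab32, Rab38, Rab39, Rab3d, Rab42, Rab43, Rab44 and Rab7b.

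These calls rested on few arrays. Without SCA3 CCI-779 replicates 2 and 5, 3 member probe sets were called in SCA3 (2.88%, against 5.88% of all), and 2 of the 12 remained: Rab4a at 0.55 (adjusted p = 0.0112) and Rab11fip4 at 0.54 (adjusted p = 0.00521). When the hybridization spike-in level was added to the model, no member was called in either genotype, nor was any probe set of the 20473. The 12 SCA3 calls kept their direction in that fit, with a median size of 0.43 against 0.40, while the median standard error went from 0.10 to 0.17. Spike-in levels did not overlap between drug and placebo arrays in either genotype. They were 10.44 to 10.65 against 11.19 to 11.60 in SCA3, and 9.97 to 10.65 against 10.88 to 11.49 in wt. A fit with the spike-in level can therefore hardly separate it from the drug. Fitting the GAPDH difference beside the groups, 10 of the 12 SCA3 calls held, and 2 of the 12 wt calls. All 12 wt changes kept their direction in that fit, with a median size of 0.31 against 0.37 and a median standard error of 0.12 against 0.11. GAPDH differences did not overlap between drug and placebo arrays in either genotype. They were −0.43 to −0.28 against −0.53 to −0.47 in SCA3, and −0.44 to 0.28 against −0.58 to −0.50 in wt, where replicate 1 alone read 0.28. The GAPDH fit therefore separates that difference poorly from the drug. Leaving out 1 array at a time, 8 of the 12 SCA3 calls and 3 of the 12 wt calls (Rab1a, Rab4a and Rab11fip4) held each time.

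Paralogs were compared within arrays, which cancels any shift common to an array. For 16 pairs, the difference between the brightest probe sets of the partners was taken on each array. It was compared between CCI-779 and placebo samples by an exact permutation test (two-sided, smallest possible p 0.00794), with adjustment over the pairs. In SCA3, 3 pairs passed. The Rab2a to Rab2b difference rose by 0.50, from a range of 3.55 to 4.01 after placebo to 4.08 to 4.69 after CCI-779 (adjusted p = 0.0423). A dimmer Rab2b probe set, 1428115_a_at, differed by 0.15 in SCA3, where the brightest Rab2a probe set differed by 0.19. Dimmer probe sets were not compared in pairs, so the result holds for the brightest ones only. The Rab4a to Rab4b difference rose by 0.48, from between −0.42 and −0.04 to between −0.01 and 0.43 (adjusted p = 0.0423). The Rab11a to Rab11b difference changed by −0.34, from between 0.26 and 0.58 to between −0.10 and 0.15 (adjusted p = 0.0423). In each of these pairs no treated array overlapped a placebo array.

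In wt, none of the 16 pairs passed, although 3 had an unadjusted p under 0.05. Rab2a to Rab2b changed by 0.53 (adjusted p = 0.212), Rab4a to Rab4b by 0.52 (adjusted p = 0.127) and Rab5a to Rab5b by 0.52 (adjusted p = 0.212). Rab11a to Rab11b, which passed in SCA3, changed by −0.11 in wt (adjusted p = 0.584). The wt changes of the first pair and the second were as large as those in SCA3, and whether the genotypes differ was not tested. Rab1a and Rab1b kept the same difference in both genotypes, with changes of −0.03 and 0.00. Leaving out SCA3 CCI-779 replicate 2 or 5, or any 1 SCA3 placebo array, left no pair past the threshold, which with 16 pairs needs at least 3 at the smallest p.

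**Figure D4:**
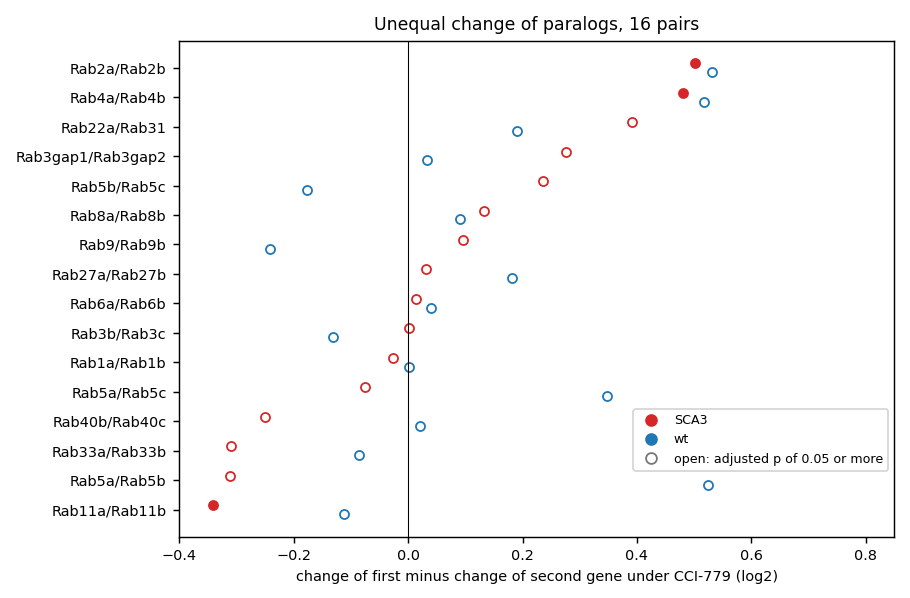
Unequal change within 16 pairs of related member genes, each gene by its brightest tested probe set. Points are the change of the first gene minus that of the second under CCI-779 (log2 scale), in SCA3 (red) and wt (blue). Filled points have an adjusted p under 0.05 in an exact permutation test over arrays, which holds for Rab2a/Rab2b, Rab4a/Rab4b and Rab11a/Rab11b in SCA3.

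Between the genotypes, no member passed. Under placebo, 0 of 104 member probe sets were called by limma, in this fit and in each alternative tried (0.00977% of all tested probe sets, which is 2 of 20473). Of the 104, 6 had an unadjusted p under 0.05 (5.77%, against 5.75% of all), and the groups did not overlap for 6 (5.77%, against 2.5% of all). The 3 genes with the smallest p were Rab1b, Rab27a and Rab37, and none of them passed. Rab1b read 8.81, 8.79, 8.58 and 8.75 in wt and 8.38, 8.40, 8.26, 8.34 and 8.39 in SCA3 placebo samples, a difference of −0.38 (SE 0.09, adjusted p = 0.369) with no overlap. Rab27a, which docks secretory granules, differed by 0.20 (adjusted p = 0.716), and Rab37, a secretory GTPase, by 0.18 (adjusted p = 0.781).

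Among CCI-779 samples, again 0 of 104 were called by limma (0.00977% of all), 21 had an unadjusted p under 0.05 (20.2%, against 15.4% of all), and 16 of those were lower in SCA3 (15.4%, against 11% of all). For 5 probe sets (4.81%, against 1.83% of all) every SCA3 array lay below every wt array, and for none above (0.552% of all). Rab9b read 8.89, 8.48, 8.81, 8.27 and 8.52 in wt and 7.92, 7.97, 7.82, 7.99 and 8.12 in SCA3, a difference of −0.63 (SE 0.11, 1.55-fold, adjusted p = 0.0857). It passed with array weights and without wt CCI-779 replicate 4 (adjusted p = 0.0407). Rab8b, which carries vesicles to the plasma membrane, differed by −0.24 (SE 0.06, adjusted p = 0.139), with SCA3 arrays at 9.24, 9.17, 9.22, 9.30 and 9.36 and wt arrays at 9.63, 9.46, 9.58, 9.47 and 9.36. Rab1b differed by −0.28 (SE 0.08, adjusted p = 0.166). This comparison and the one under placebo use different arrays for both genotypes, and Rab1b was lower in SCA3 without overlap in both. It passed in neither and was named for its small p, and the share of all probe sets with this pattern was not counted.

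By limma, no member passed the test of the difference in drug effect between the genotypes, where 11 probe sets had an unadjusted p under 0.05 (10.6%, against 7.68% of all). The smallest p values belonged to Rab9b (−0.51, SE 0.16, adjusted p = 0.544), Rab5a (−0.21, adjusted p = 0.557) and Rab7 (−0.28, SE 0.10, adjusted p = 0.578). On its brightest probe set, each had a higher level after the drug in wt and a lower one in SCA3. The other tested Rab7 probe set, 1448159_at, showed no rise in wt. It read 11.07, 10.75, 10.94 and 10.86 after placebo and 10.47, 10.94, 10.85, 11.14 and 10.93 after CCI-779. The median of this difference was −0.07 over the 54 member genes and −0.07 over all genes.

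**Figure D5:**
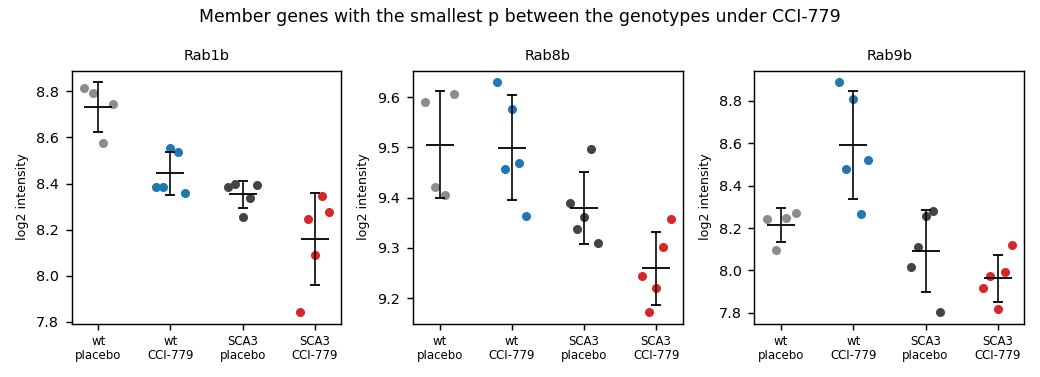
Log2 intensity on each array (points) with mean and SD (bars) of Rab1b, Rab8b and Rab9b, the member genes with the smallest p between the genotypes under CCI-779. In the right panel all SCA3 CCI-779 arrays (7.82 to 8.12) lie below all wt CCI-779 arrays (8.27 to 8.89).

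The genes that load, switch and read Rab proteins were taken from lists. None of 8 tested genes of prenylation and membrane recycling was called in either genotype. Nor was any of 7 tested genes on a list of Rab-like GTPases, which also held Ran, Rhot1 and Rhot2. Rabl6, a Rab-like protein counted on the effector list instead, rose by 0.35 in SCA3 (limma adjusted p = 0.0185). Over all genes by their brightest probe set, 11% rose and 6.09% fell in SCA3 (median 0.00), and 11.5% rose and 1.64% fell in wt (median 0.08), and the lists stand beside these shares with no test. Of 39 exchange factors, 5 rose and 6 fell in SCA3 (median −0.02), and 5 rose and none fell in wt (median 0.13). Rabgef1, an exchange factor of Rab5, fell by 0.51 in SCA3 (adjusted p = 0.00693), with Dennd11 (−0.27) and Dennd5b (−0.33) next by p. In wt Sbf1 rose by 0.61 (adjusted p = 0.00447), Rin2 by 0.78 and Dennd2a by 0.76.

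Of 32 GAPs, 5 rose and 1 fell in SCA3 (median 0.01), and 3 rose and 1 fell in wt (median 0.15), where 17.1% and 13.1% of all genes were called. Evi5l rose by 0.59 in SCA3 and 0.35 in wt (adjusted p = 0.00102 and 0.034). Tbc1d2b rose by 0.42 and Tbc1d14 fell by 0.35 in SCA3, and Tbc1d10b rose by 0.42 and Tbc1d24 fell by 0.35 in wt. Of 41 effectors, 10 rose and 4 fell in SCA3 (median 0.02), and 8 rose and 1 fell in wt (median 0.16), against the same 17.1% and 13.1% of all genes called. Rph3a, the synaptic vesicle effector of Rab3, rose by 1.40 in SCA3 and 1.10 in wt (adjusted p = 1.41e-05 and 2.17e-04), more than any member.

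Other effectors moved in both genotypes. Myo5a, a vesicle motor, rose by 0.42 in SCA3 and 0.44 in wt (adjusted p = 4.91e-04 and 9.62e-04). Rbsn, an effector shared by Rab4 and Rab5, rose by 0.64 and 0.39 (adjusted p = 0.00162 and 0.0419), while Rabep1, another effector of these GTPases, fell by 0.23 and 0.33 (adjusted p = 0.011 and 0.00282).

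The Arf family, a neighbouring group of small GTPases, was measured the same way. Of 15 Arf-family genes 2 rose (Arf4 and Sar1a) and 1 fell (Arf1) in each genotype, with medians of −0.06 in SCA3 and −0.01 in wt. These counts stand beside 7 of 54 called genes for the Rab members in each genotype, and the difference between both families was not tested.

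With each gene taken by its brightest probe set, Rab11fip4 had the smallest p in SCA3. After each group's mean was subtracted, the member genes whose levels over the 19 arrays were most like Rab11fip4 were Rab30 (Pearson's r = 0.56), Rab15 (0.54), Rab26 (0.43), Rab27a (0.43) and Rab31 (0.42). The median over all member genes was 0.08. The points are arrays that share normalization, and the values are a description.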

How the data were processed

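The deposited values were linear intensities per probe set, which the authors had computed by GCRMA according to the submitters' processing notes (version not given in the sources used here), so background correction, quantile normalization and summary of probes came before these steps. Intensities were put on the log2 scale with no pseudocount. Probe sets were tested where the mean log2 was at least 4 (20473 of 45037, controls left out). A model of 4 group means over 19 arrays was fitted with limma 3.58.1 in R 4.3.3 (15 residual degrees of freedom). Tests were two-sided, with Benjamini-Hochberg adjustment over all tested probe sets and a threshold of 0.05. A gene stands for its brightest tested probe set. Symbols come from the platform annotation, and all 70 matched RefSeq. The scripts were tested on simulated data. The number of arrays limits the precision. Replicate numbers were not used to pair the samples. Same-numbered samples correlated between −0.13 and 0.29 in SCA3 and between −0.10 and 0.23 in wt after group means were subtracted. Samples with different numbers were not set beside them, so whether the numbers mark a shared batch was not tested.

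Members, gene lists and pairs were chosen with earlier results of these data known. Named were up to 12 rising and 12 falling members per contrast that passed, otherwise the 3 with the smallest p, other probe sets of those genes where call or direction differed, and the 3 passing genes with the smallest p per pathway list. Rab24 and Rab26 were added after their values were seen. Alternatives covered filters, scalings, covariates, array weights, thresholds and arrays left out. A further gene list that was measured the same way is not reported here.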

Additional observations from a re-analysis of the deposited data

Results flagged for a closer look

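In 6 of 88 groups of a named probe set, 1 array lay far from the rest by Dixon's criterion, and chance gives about 1 in 20 (5%). Rab1a was lowest in wt CCI-779 replicate 1, at 12.60, with the others at 12.87 to 12.94. In wt CCI-779 replicate 5, Rab14 (1419244_a_at) was at 11.32 with the others at 11.64 to 11.69, and Rab11fip4 was at 10.20 with the others at 10.39 to 10.44. Rab5a was highest in SCA3 placebo replicate 5, at 12.34, with the others at 12.28 to 12.30. Rab27a was highest in wt CCI-779 replicate 3, at 7.38, with the others at 7.22 to 7.23. Rab37 was lowest in wt placebo replicate 1, at 6.97, with the others at 7.27 to 7.29.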

How the results depend on the processing

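In SCA3, 12 member probe sets were called under CCI-779, and the count was 2 at a threshold of 0.01, 0 with the spike-in level in the model, and 3 without SCA3 CCI-779 replicates 2 and 5. Leaving out 1 array at a time gave 8 to 20, the highest without wt CCI-779 replicate 1. In a fit without these 3 arrays, chosen after seeing the data, 11 were called and 4 of the 12 kept. In wt, also 12, the count was 7 with no filter on low values, 3 with only the arrays of the groups compared, 1 at a threshold of 0.01, 21 at 0.1, 0 with the spike-in covariate and 2 with the GAPDH covariate. Leaving out 1 array gave 4 to 17, with 7 without wt CCI-779 replicate 4, 6 without wt placebo replicate 2 and 4 without wt placebo replicate 4. Between the genotypes under CCI-779, 1 member was called with array weights and 1 at a threshold of 0.1, and 0 to 1 with 1 array left out, against 0. With the replicate number as a block, which the main fit does not use, 7 were called in wt, and it moved no other count of members by over 1.5 times. Of the paralog pairs in SCA3, 3 passed, with 0 without replicates 2 and 5, 0 to 4 with 1 array left out, and 5 by limma with the replicate block or with no block (the latter added after seeing the data). In wt, 0 passed, and 2 by limma with the block or with none. No result reversed. The causes of these moves were not tested. The spike-in fits can hardly separate the spike-in level from the drug, and the GAPDH fits separate the GAPDH difference from it poorly.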
